A study of Homo sapiens with 8 samples.

Results

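The BCL2 family was described here by 10 genes in RNA-seq of MOLT-4 and DND-41, established human cell lines of T-cell acute lymphoblastic leukaemia (T-ALL). The members were listed by symbol: the prosurvival genes BCL2, BCL2L1 and MCL1, the BH3-only genes BCL2L11, BBC3, BMF, BIK and BID, and the effectors BAX and BAK1. Each of the 10 symbols matched 1 gene identifier among the 63677 in the count tables. Cells of each line received ACBI-1 at 100 nM or the solvent DMSO for 8 h, with 2 libraries in each of the 4 groups. ACBI-1 joins a ligand of the SMARCA2, SMARCA4 and PBRM1 bromodomains to one that recruits the ubiquitin ligase VHL, so these chromatin remodelling subunits are degraded as proteins and their transcripts do not check the labels. Levels are in CPM, counts relative to a library's effective size, and fold changes are log2 of ACBI-1 over DMSO ± SE. A gene is called higher or lower at a Benjamini-Hochberg adjusted p below 0.05 in edgeR's quasi-likelihood test of 2 libraries against 2, adjusted over every gene tested. The labels do not give the libraries as separate cultures, so a p-value here speaks only of how far these libraries scatter, a scatter that may be technical.

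The family controls the mitochondrial route to apoptosis. BAX and BAK1 proteins form pores in the outer mitochondrial membrane and release cytochrome c, the prosurvival proteins hold them in check, and BH3-only proteins bind the prosurvival proteins or engage BAX and BAK1 directly. In T-cell leukaemia, dependence on BCL2 or on the BCL2L1 product BCL-XL varies with the stage of T-cell development that the leukaemia resembles, and glucocorticoids raise BCL2L11.

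Library totals lay between 19860759 and 20239888 counts, so 3 counts equal 0.148 to 0.151 CPM, and replicates of a group had Pearson's r from 0.9983 to 0.999 across genes. The 10 T-lineage markers summed to 6288 to 8354 CPM in MOLT-4 and to 5950 to 6267 CPM in DND-41. Myeloid markers summed to at most 0.795 CPM and erythroid markers to at most 0.771 CPM in any library. The B-lineage list held 6 genes, of which MS4A1 and PAX5 were at 0 in all libraries, while CD79A reached 4.06 ± 0.57 CPM with ACBI-1 and 6.77 ± 0.52 CPM with DMSO in MOLT-4, and 957 ± 31.0 CPM with ACBI-1 and 1577 ± 13.1 CPM with DMSO in DND-41 (SD, n = 2). Both MOLT-4 replicate 2 libraries stood apart in collagen: COL1A1 was at 0 and 11.4 CPM with ACBI-1 and at 2.20 and 55.4 CPM with DMSO, replicate 1 before replicate 2. The 7 stromal and epithelial markers together ran from 0.741 to 16.4 CPM with ACBI-1 and from 4.62 to 76.1 CPM with DMSO in MOLT-4, and from 8.09 to 11.1 CPM with ACBI-1 and from 50.2 to 52.6 CPM with DMSO in DND-41, there mostly PDGFRB. The part of these markers in the results was not tested. The mitochondrially encoded share of counts was 21.3% and 24.6% with ACBI-1 against 19% and 14.4% with DMSO in MOLT-4, and 15.5% and 11.8% with ACBI-1 against 12.1% and 13.2% with DMSO in DND-41. Without both MOLT-4 replicate 2 libraries, or without the mitochondrially encoded genes, no called member changed direction in any comparison, and the calls that were lost are given beside their results.

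In MOLT-4, all 10 members passed the low-count filter, and 1 was higher with ACBI-1 (BCL2L11), 6 were lower (BCL2, MCL1, BIK, BID, BAX and BAK1) and 3 were not called. Over all 14239 genes tested in MOLT-4, 45.1% were called, 20.7% higher and 24.4% lower. In DND-41, 9 members passed the filter, and 3 were higher (BCL2L11, BMF and BCL2L1), 5 were lower (BCL2, BBC3, BID, BAX and BAK1) and MCL1 was not called. Over all 14008 genes tested in DND-41, 43.2% were called, 20% higher and 23.2% lower. The median log2 fold change of the members tested was -0.55 in MOLT-4 and -0.21 in DND-41, where the median over all genes tested was 0.0009 in MOLT-4 and 0.0104 in DND-41. BCL2L11 was thus higher in both lines, and BCL2, BID, BAX and BAK1 were lower in both. Scaled by library size alone, 31.2% of all calls in MOLT-4 were higher, against 45.9% in the fit reported here.

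The promoter of 8 of the 10 members was found in the RefSeq table (GRCh38.p14), which had no entry under the symbols MCL1 and BIK. The 250 bases before the transcription start are printed for BCL2L11, the member higher in both lines, for BCL2 and BAX, a prosurvival gene and an effector lower in both, and for BBC3, the member with the largest fall in DND-41. Capitals mark matches, on either strand, to 8 motifs searched by their letters: the forkhead FOXO motif TGTTTAC, the SP1 box GGGCGG, the E-box CACGTG, the AP-1 motif TGACTCA, the cyclic AMP response element (CRE) TGACGTCA, the ETS motif CCGGAA, the RUNX motif TGTGGT and the CSL motif TGGGAA. No motif contains another, and no matches overlap in these windows.
BCL2L11, chr2:111120664-111120913, plus strand: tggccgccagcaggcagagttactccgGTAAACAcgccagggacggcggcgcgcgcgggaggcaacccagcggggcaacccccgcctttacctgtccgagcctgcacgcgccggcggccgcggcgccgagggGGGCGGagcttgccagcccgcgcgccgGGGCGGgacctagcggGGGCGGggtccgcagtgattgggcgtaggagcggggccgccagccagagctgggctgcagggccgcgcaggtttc
BCL2, chr18:63319770-63320019, minus strand: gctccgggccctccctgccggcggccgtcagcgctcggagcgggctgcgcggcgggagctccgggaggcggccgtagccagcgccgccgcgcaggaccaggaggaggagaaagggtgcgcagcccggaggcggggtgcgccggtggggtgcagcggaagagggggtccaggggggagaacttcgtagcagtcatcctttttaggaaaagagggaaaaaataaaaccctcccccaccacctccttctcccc
BAX, chr19:48954625-48954874, plus strand: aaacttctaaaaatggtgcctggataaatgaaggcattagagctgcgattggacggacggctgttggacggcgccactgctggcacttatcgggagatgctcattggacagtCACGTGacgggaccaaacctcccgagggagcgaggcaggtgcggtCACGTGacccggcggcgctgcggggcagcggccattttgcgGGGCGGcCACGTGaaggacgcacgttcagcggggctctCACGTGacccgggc
BBC3, chr19:47232668-47232917, minus strand: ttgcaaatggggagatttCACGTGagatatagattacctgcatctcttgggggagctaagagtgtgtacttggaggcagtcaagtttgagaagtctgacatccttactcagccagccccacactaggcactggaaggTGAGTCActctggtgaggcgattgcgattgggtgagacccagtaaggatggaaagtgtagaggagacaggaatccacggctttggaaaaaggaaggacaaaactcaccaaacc
The BCL2L11 window held 1 FOXO match on the antisense strand, its first base at -223 (the base before the start is -1), and 3 SP1 boxes. The FOXO letters occur in 2.98% of 35116 RefSeq promoter windows of this length and the SP1 box in 42.6%. BAX held 4 E-boxes, first bases at -138, -93, -45 and -14, and 1 SP1 box; 6.34% of windows have at least 1 E-box. BBC3 held an E-box at -232 and an AP-1 match at -113, and 4.2% of windows have an AP-1 match. None of the 8 motifs occurs in the BCL2 window. Across all windows the CRE occurs in 1.65%, the ETS motif in 14.5%, the RUNX motif in 11% and the CSL motif in 20.8%. These are letter matches in the reference sequence, and no binding was measured.

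BCL2, the founding prosurvival gene, fell in both lines. It was at 12.6 and 12.7 CPM in the ACBI-1 libraries of MOLT-4, against 22.1 and 21.0 CPM in its DMSO libraries. The DND-41 libraries had 49.5 and 58.4 CPM with ACBI-1, against 107 and 112 CPM with DMSO. The groups did not overlap in either line, and every DND-41 library, treated or not, lay above every MOLT-4 library. The log2 fold change was -0.77 ± 0.09 in MOLT-4 (edgeR adjusted p = 1.24e-06) and -1.01 ± 0.08 in DND-41 (adjusted p = 8.47e-08). In bulk RNA, fewer cells with a transcript and less transcript per cell cannot be told apart.

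BCL2L1 makes BCL-XL and, by alternative splicing, the shorter death-promoting BCL-XS, which counts per gene do not separate. MOLT-4 libraries held 215 and 197 CPM with ACBI-1, against 202 and 185 CPM with DMSO, and these ranges overlap. In DND-41 the gene was at 649 and 629 CPM with ACBI-1, against 482 and 520 CPM with DMSO, with no overlap. BCL2L1 rose in DND-41 by 0.36 ± 0.06 (edgeR adjusted p = 2.62e-04), while its log2 fold change in MOLT-4 was 0.08 ± 0.06 (adjusted p = 0.279). Without DMSO replicate 1, MOLT-4 also passed the threshold, at 0.15 with an adjusted p of 0.0371. ABALON, a gene on the opposite strand that is not among the counted genes, shares 1424 exonic bases with BCL2L1 in GENCODE 29, and the strand setting of the counts is not given in the sources used here.

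MCL1, a short-lived prosurvival protein that many leukaemias rely on, separated the lines. MOLT-4 libraries were at 63.7 and 64.6 CPM with ACBI-1, below the 92.7 CPM of both DMSO libraries. DND-41 libraries were at 116 and 111 CPM with ACBI-1, which span the 112 and 114 CPM with DMSO. MCL1 fell in MOLT-4 by 0.53 ± 0.06 on the log2 scale (edgeR adjusted p = 2.16e-07), and in DND-41 the log2 fold change was 0.02 ± 0.06 (adjusted p = 0.830).

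BCL2L11 encodes BIM, a BH3-only protein that binds all prosurvival members and mediates thymocyte deletion and glucocorticoid killing of lymphoid cells. Its libraries had 83.4 and 84.7 CPM with ACBI-1 in MOLT-4, against 50.5 and 47.0 CPM with DMSO. In DND-41 they had 93.0 and 86.8 CPM with ACBI-1, against 56.6 and 54.8 CPM with DMSO. All 4 treated libraries lay above all 4 DMSO libraries, whichever the line. The log2 fold change was 0.78 ± 0.06 in MOLT-4 (edgeR adjusted p = 4.54e-09) and 0.70 ± 0.07 in DND-41 (adjusted p = 6.88e-07). Under the 13 alternatives in MOLT-4 it ranged from 0.70 to 0.84, and under the 12 in DND-41 from 0.65 to 0.75. GENCODE 29 places 727 exonic bases of BCL2L11 opposite MIR4435-2HG, which the files list as MIR4435-1HG. That gene fell in both lines, by 0.46 ± 0.15 in MOLT-4 (edgeR adjusted p = 0.0206) and by 0.26 ± 0.08 in DND-41 (adjusted p = 0.0143). Its levels were 5.76 ± 0.50 CPM with ACBI-1 and 7.86 ± 1.54 CPM with DMSO in MOLT-4, and 35.7 ± 3.31 CPM with ACBI-1 and 43.1 ± 2.12 CPM with DMSO in DND-41 (SD, n = 2).

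**Figure D1:**
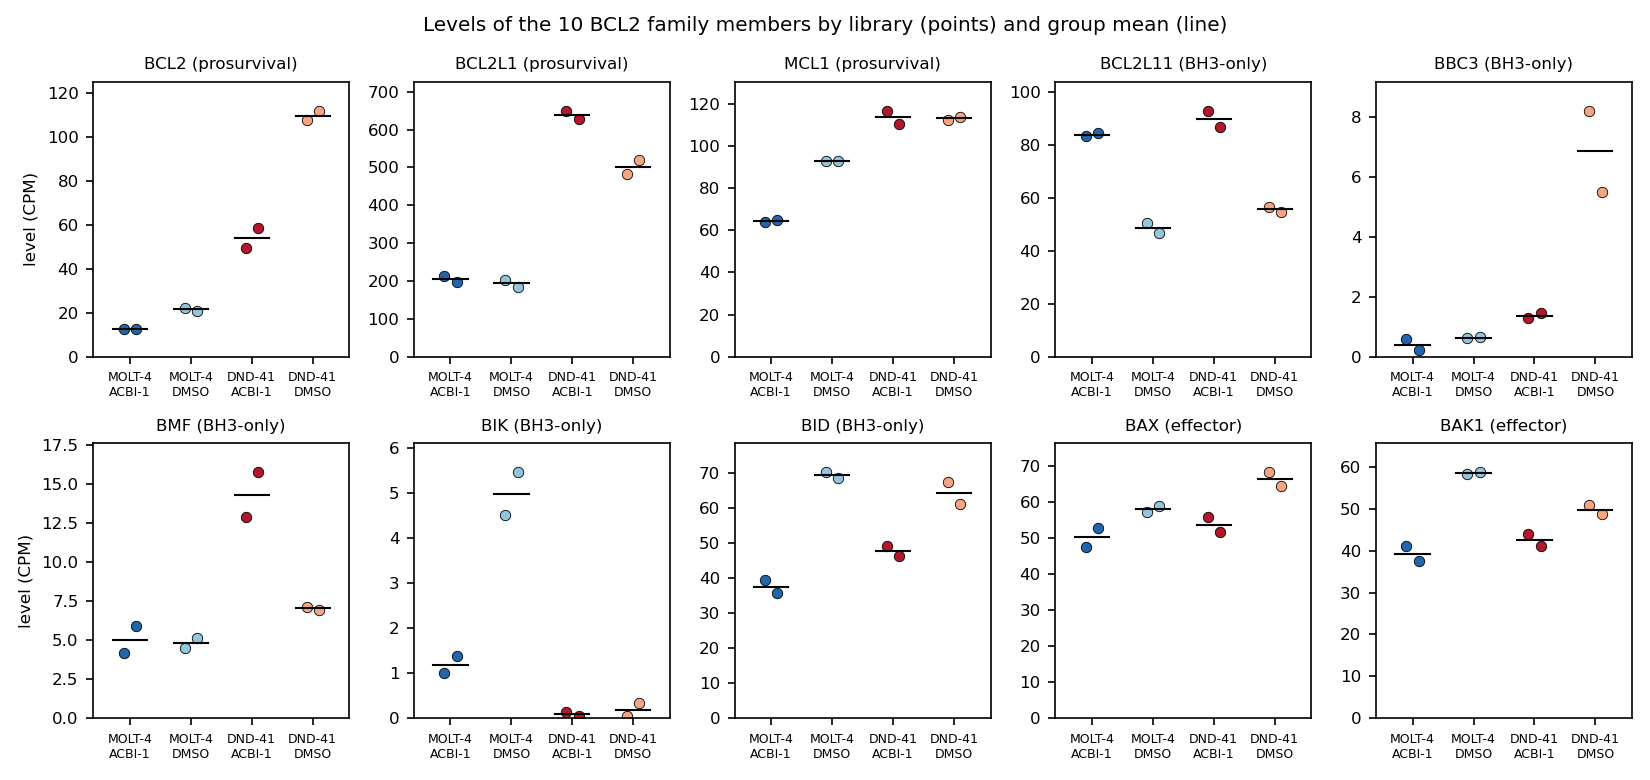
Level in CPM (vertical axis, from 0) of each of the 10 members in the 8 libraries; points are libraries, lines are means of 2, and the groups run from MOLT-4 with ACBI-1 and DMSO to DND-41 with ACBI-1 and DMSO. BCL2L11 is higher with ACBI-1 in both lines, and BIK is at most 0.338 CPM in the DND-41 libraries.

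BBC3, the gene of the p53-inducible BH3-only protein PUMA, fell most among the members tested in DND-41. It had 27 and 32 counts there with ACBI-1, which is 1.29 and 1.46 CPM, against 173 and 114 counts with DMSO, which is 8.21 and 5.51 CPM. The ranges were far apart, although the DMSO libraries differed between themselves. The log2 fold change was -2.30 ± 0.24 (edgeR adjusted p = 2.60e-06). MOLT-4 had 11 and 4 counts with ACBI-1, against 12 and 13 counts with DMSO, at most 0.646 CPM. A difference was not detectable at this depth, with a log2 fold change of -0.65 ± 0.48 (edgeR adjusted p = 0.284).

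BMF, a BH3-only protein that binds the light chain DYNLL2, rose in DND-41. It was at 12.9 and 15.7 CPM with ACBI-1, against 7.12 and 6.96 CPM with DMSO, a log2 fold change of 1.04 ± 0.13 (edgeR adjusted p = 1.20e-05). In MOLT-4 the 4.18 and 5.89 CPM with ACBI-1 enclosed the 4.51 and 5.17 CPM with DMSO. The log2 fold change there was 0.05 ± 0.18 (edgeR adjusted p = 0.856). The overlapping antisense gene BMF-AS1 had 0 counts in every library.

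BIK, a BH3-only protein of the endoplasmic reticulum, was measurable in MOLT-4. There it had 19 and 25 counts with ACBI-1, which is 1.01 and 1.38 CPM, against 86 and 110 counts with DMSO, which is 4.51 and 5.47 CPM. The gap gave a log2 fold change of -2.07 ± 0.25 (edgeR adjusted p = 1.01e-06), the lowest of the 10 members in that line. DND-41 had 3 and 1 counts with ACBI-1, against 1 and 7 counts with DMSO, and the gene was left out of that test by the low-count filter.

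BID links death receptors to mitochondria, because caspase-8 cleaves it to its active form. MOLT-4 libraries held 39.4 and 35.7 CPM with ACBI-1, against 70.1 and 68.6 CPM with DMSO. DND-41 libraries held 49.0 and 46.2 CPM with ACBI-1, against 67.5 and 61.2 CPM with DMSO. No treated library reached a DMSO library in either line. BID fell by 0.89 ± 0.07 in MOLT-4 (edgeR adjusted p = 3.32e-09) and by 0.42 ± 0.07 in DND-41 (adjusted p = 2.34e-04).

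The pore-forming effectors fell in both lines. BAX was at 47.5 and 53 CPM with ACBI-1, against 57.4 and 58.9 CPM with DMSO, in MOLT-4, and at 55.9 and 51.8 CPM with ACBI-1, against 68.3 and 64.5 CPM with DMSO, in DND-41. BAK1 was at 41.1 and 37.4 CPM with ACBI-1, against 58.2 and 58.6 CPM with DMSO, in MOLT-4, and at 44.0 and 41.0 CPM with ACBI-1, against 50.9 and 48.7 CPM with DMSO, in DND-41. Treated libraries were below their controls in all of these pairs of groups. BAX fell by 0.22 ± 0.07 in MOLT-4 (edgeR adjusted p = 0.0163) and by 0.29 ± 0.07 in DND-41 (adjusted p = 0.00309). BAK1 fell by 0.58 ± 0.07 in MOLT-4 (edgeR adjusted p = 1.59e-06) and by 0.21 ± 0.07 in DND-41 (adjusted p = 0.0214). Among the ACBI-1 effects within each line, BAX in both lines and BAK1 in DND-41 did not pass under every alternative that tested them. The other calls passed wherever they were tested, but BIK in MOLT-4 was not tested with at least 1 CPM in every library. BAX in MOLT-4 was no longer called with DESeq2 (-0.21, adjusted p = 0.0860), without ACBI-1 replicate 1 (-0.13, adjusted p = 0.291) or without both replicate 2 libraries (-0.28, adjusted p = 0.0565). BAX in DND-41 was lost without DMSO replicate 1 (-0.25, edgeR adjusted p = 0.0543). BAK1 in DND-41 was lost in 6 of 12 alternatives, among them DESeq2 (-0.21, adjusted p = 0.103), library size alone (-0.19, adjusted p = 0.0601), and the fit without ACBI-1 replicate 2 (-0.17, adjusted p = 0.0697). Its adjusted p was 0.192 (log2 -0.19) when DMSO replicate 1 was left out and 0.0692 (log2 -0.25) when DMSO replicate 2 was, both by edgeR.

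**Figure D2:**
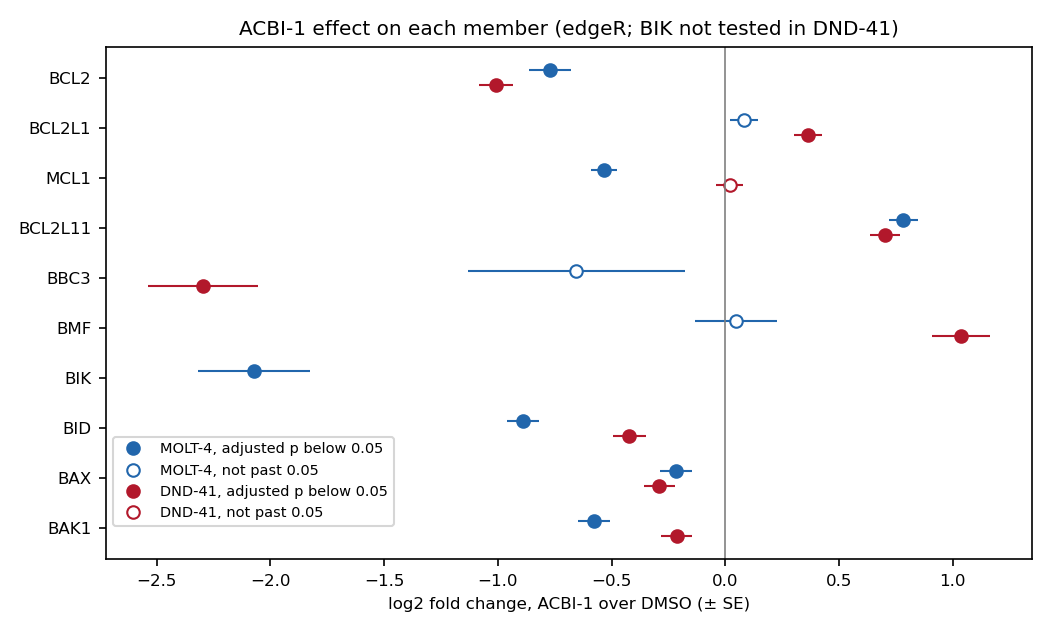
Log2 fold change of ACBI-1 over DMSO (horizontal axis) with its SE for each member in MOLT-4 (blue, upper point) and DND-41 (red, lower point); filled points have an edgeR adjusted p below 0.05. BCL2L11 is at 0.78 in MOLT-4 and 0.70 in DND-41, whereas MCL1 is at -0.53 in MOLT-4 and 0.02 in DND-41.

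Whether the lines responded differently was tested with an interaction term in the fit of all 8 libraries, the effect in MOLT-4 minus that in DND-41. Of the 10 members, the difference was called negative for 4 and not called for 6. Over all 15498 genes tested, 13.3% were called, 6.17% lower and 7.18% higher. At an unadjusted edgeR p below 0.05, BCL2 and BBC3 had a positive difference, their fold change being less negative in MOLT-4. Neither passed after adjustment, and BBC3 in MOLT-4 rests on 4 to 13 counts per library. The 4 called were MCL1 (-0.54 ± 0.08, edgeR adjusted p = 1.16e-04), BMF (-0.97 ± 0.23, adjusted p = 0.00716), BID (-0.45 ± 0.10, adjusted p = 0.00379) and BAK1 (-0.34 ± 0.09, adjusted p = 0.0200). BID and BAK1 therefore fell further in MOLT-4, MCL1 fell in MOLT-4 and was not called in DND-41, and BMF had its rise in DND-41 without a matching one in MOLT-4. BCL2L11 differed by 0.10 ± 0.09 (edgeR adjusted p = 0.549), BCL2 by 0.25 ± 0.12 (adjusted p = 0.194) and BAX by 0.09 ± 0.10 (adjusted p = 0.618). BCL2L1 differed by -0.26 ± 0.09 (edgeR adjusted p = 0.0642) and BBC3 by 1.66 ± 0.62 (adjusted p = 0.0888). For BIK the estimate of -1.08 ± 1.10 (edgeR adjusted p = 0.609) rests on 1 to 7 counts per DND-41 library. BCL2L1 was called in 7 of 16 alternatives, for example with DESeq2 (adjusted p = 0.0403) and in edgeR without MOLT-4 DMSO replicate 2 (adjusted p = 0.0297). BBC3 was called in 2, with no filter (1.65, adjusted p = 0.0340) and without DND-41 DMSO replicate 2 (1.92, adjusted p = 0.0498), and BCL2 in 1, without DND-41 ACBI-1 replicate 2 (0.38, adjusted p = 0.0244). BMF was lost without MOLT-4 ACBI-1 replicate 1 (-0.73, edgeR adjusted p = 0.0618), and BID without both MOLT-4 replicate 2 libraries (-0.42, adjusted p = 0.0696). BAK1 was lost in 6 of 16 alternatives, including the fits without both MOLT-4 replicate 2 libraries (-0.30, edgeR adjusted p = 0.206), DND-41 ACBI-1 replicate 1 (adjusted p = 0.0673), DND-41 DMSO replicate 1 (adjusted p = 0.0553), DND-41 DMSO replicate 2 (adjusted p = 0.122) and MOLT-4 ACBI-1 replicate 2 (adjusted p = 0.141). DESeq2 gave BAK1 an adjusted p of 0.0563. Library size alone moved the median difference of all genes to -0.12, and 26.1% of calls were then higher, against 53.8% with the scaling used here.

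The lines also started from different levels, compared over their DMSO libraries, which are also the controls of the treatment contrast in each line. In MOLT-4, 2 members were higher than in DND-41 and 7 were lower, where over all 15498 genes 63.8% were called, 33.2% higher and 30.7% lower. The log2 difference, MOLT-4 over DND-41, was 4.66 ± 0.41 for BIK (edgeR adjusted p = 8.36e-09), which had 86 and 110 counts in MOLT-4 and 1 and 7 counts in DND-41. It was 3.86 without DND-41 DMSO replicate 1 and 6.54 without DND-41 DMSO replicate 2, so its size rests on these few counts. BAK1 differed by 0.23 ± 0.07 (edgeR adjusted p = 0.00462). The prosurvival genes were lower in MOLT-4, with -2.35 ± 0.08 for BCL2, -1.37 ± 0.07 for BCL2L1 and -0.29 ± 0.06 for MCL1. So were the BH3-only genes BBC3 (-3.41 ± 0.30), BMF (-0.54 ± 0.17) and BCL2L11 (-0.19 ± 0.06), and BAX (-0.19 ± 0.07), with edgeR adjusted p-values of at most 0.0172 over these 7. BID differed by 0.11 ± 0.07 (edgeR adjusted p = 0.164). BAX lost its call without DND-41 DMSO replicate 1 (edgeR adjusted p = 0.147) and without each MOLT-4 DMSO library (adjusted p = 0.0907 without replicate 1, adjusted p = 0.0571 without replicate 2). BCL2L11 lost it without DND-41 DMSO replicate 1 (edgeR adjusted p = 0.0949) or MOLT-4 DMSO replicate 2 (adjusted p = 0.189). BAK1 lost it without DND-41 DMSO replicate 2 (edgeR adjusted p = 0.0664) and BMF without MOLT-4 DMSO replicate 1 (adjusted p = 0.0731). BAX (edgeR adjusted p = 0.0644) and BCL2L11 (adjusted p = 0.226) were also not called when both MOLT-4 replicate 2 libraries were left out.

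Levels of different members were compared per kilobase of exon, using the union of exons in GENCODE 29. BCL2L1 was the most abundant member in every group, at 62.0 CPM per kb with ACBI-1 and 58.4 with DMSO in MOLT-4, and at 193 CPM per kb with ACBI-1 and 151 with DMSO in DND-41. In MOLT-4 with ACBI-1 the order after BCL2L1 ran BAX, BAK1, MCL1, BCL2L11, BID, BIK, BCL2, BMF and BBC3, from 19.4 to 0.126 CPM per kb, and the libraries of BAX and BAK1, BIK and BCL2, and BCL2 and BMF overlapped. With DMSO in MOLT-4 the order was BAK1, BAX, MCL1, BID, BCL2L11, BIK, BCL2, BMF and BBC3, from 26.4 to 0.201 CPM per kb, with no overlap between neighbours. In DND-41 with ACBI-1 it ran MCL1, BAX, BAK1, BCL2L11, BID, BCL2, BMF, BBC3 and BIK, from 26.0 to 0.0993 CPM per kb, again with no overlap. With DMSO in DND-41 the order was MCL1, BAX, BAK1, BID, BCL2, BCL2L11, BBC3, BMF and BIK, from 25.9 to 0.202 CPM per kb, where MCL1 and BAX overlapped. BCL2L11 thus stood above BID in both lines with ACBI-1 and below it with DMSO. The union length counts exons of isoforms that a cell may not use, so levels between genes depend on it more than ratios between treatments do.

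The ratio of BCL2L11 to BCL2 transcript per kilobase summarises the opposite moves of these members. It was 11.7 and 11.8 in MOLT-4 with ACBI-1, against 4.04 and 3.96 with DMSO, and 3.32 and 2.63 in DND-41 with ACBI-1, against 0.932 and 0.867 with DMSO. BCL2L11 over MCL1 was 0.859 and 0.861 in MOLT-4 with ACBI-1, against 0.358 and 0.333 with DMSO, and 0.524 and 0.516 in DND-41 with ACBI-1, against 0.331 and 0.316 with DMSO. Neither ratio overlapped between treatments in either line, which follows from the member levels given above and is no separate support. In DND-41, where MCL1 was not called, the ratio to MCL1 repeats the rise of BCL2L11. Summed over the 5 BH3-only members, transcript was at 23.4 and 23.3 CPM per kb with ACBI-1, against 29.1 and 29.4 with DMSO, in MOLT-4. In DND-41 it was at 27.9 and 26.8 CPM per kb with ACBI-1, against 27.6 and 25.4 with DMSO. BCL2L11 made up 53.6% and 54.5% of this sum in MOLT-4 with ACBI-1, against 26.1% and 24.0% with DMSO, and 50.0% and 48.6% in DND-41 with ACBI-1, against 30.8% and 32.5% with DMSO. BID made up 37.9% and 34.4% of it in MOLT-4 with ACBI-1, against 54.1% and 52.5% with DMSO, and 39.5% and 38.7% in DND-41 with ACBI-1, against 54.9% and 54.3% with DMSO. So the sum of these 5 BH3-only members changed in makeup in both lines and was smaller with ACBI-1 in MOLT-4. Other expressed BH3-only genes, such as PMAIP1, are not part of it.

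The prosurvival sum was 80.4 and 75.2 CPM per kb with ACBI-1, against 84.1 and 78.8 with DMSO, in MOLT-4, where the ranges overlap, and 227 and 220 with ACBI-1, against 180 and 192 with DMSO, in DND-41. BCL2L1 was 80.5% and 78.9% of that sum in MOLT-4 with ACBI-1, against 72.6% and 70.8% with DMSO, and 86.4% and 86.3% in DND-41 with ACBI-1, against 80.7% and 81.5% with DMSO. The effector sum was 37.0 and 37.4 CPM per kb with ACBI-1, against 48.5 and 49.3 with DMSO, in MOLT-4, and 41.5 and 38.6 with ACBI-1, against 49.4 and 46.9 with DMSO, in DND-41. BH3-only over prosurvival transcript was 0.291 and 0.311 with ACBI-1, against 0.346 and 0.373 with DMSO, in MOLT-4, and 0.123 and 0.122 with ACBI-1, against 0.153 and 0.132 with DMSO, in DND-41. This overall ratio was lower with ACBI-1 in both lines, whereas the ratios of BCL2L11 to BCL2 and to MCL1 were higher. Its direction depends on BCL2L1: BH3-only transcript over the sum of BCL2 and MCL1 alone was 1.49 and 1.47 with ACBI-1, against 1.26 and 1.28 with DMSO, in MOLT-4. In DND-41 it was 0.905 and 0.886 with ACBI-1, against 0.793 and 0.714 with DMSO, higher in both lines without overlap. These ratios are descriptions and were not tested.

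**Figure D3:**
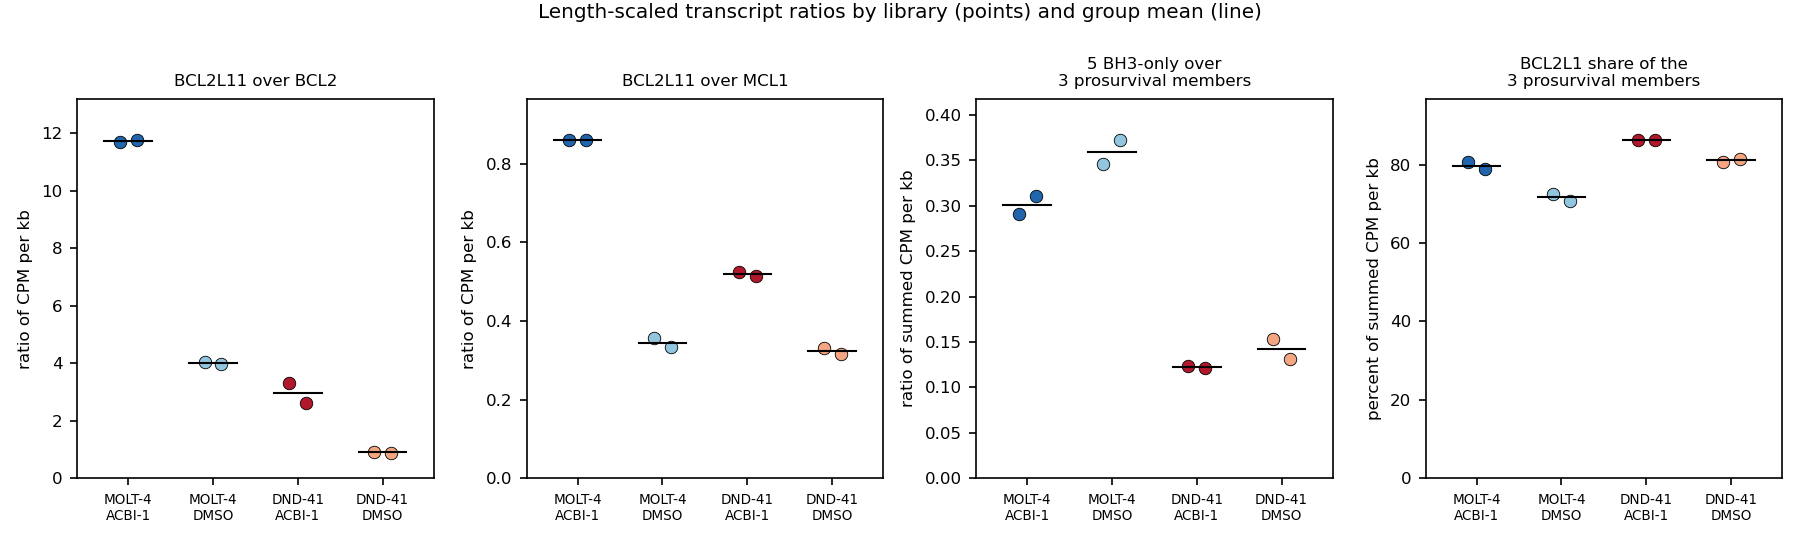
Ratios and share of length-scaled transcript (vertical axes, from 0) by library; points are libraries and lines are means of 2, with ACBI-1 left of DMSO within each line. BCL2L11 over BCL2 averages 11.7 with ACBI-1 and 4.0 with DMSO in MOLT-4, while BH3-only over prosurvival averages 0.301 with ACBI-1 and 0.359 with DMSO in that line.

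A list of 14 other BCL2 family genes and genes for BCL2-interacting proteins, among them BNIP2, had 10 tested in each line. In both lines 1 was higher and 2 were lower, where 45.1% of all genes were called in MOLT-4 and 43.2% in DND-41. The list's median log2 fold change was -0.06 in MOLT-4 and -0.04 in DND-41, close to the medians over all genes. PMAIP1, the BH3-only gene NOXA whose protein targets MCL1, was at 11.5 and 12.3 CPM with ACBI-1, against 16.4 and 18.8 CPM with DMSO, in MOLT-4. It was at 30.9 and 30.7 CPM with ACBI-1, against 55.7 and 52.0 CPM with DMSO, in DND-41. PMAIP1 fell by 0.58 ± 0.10 in MOLT-4 (edgeR adjusted p = 1.57e-04) and by 0.79 ± 0.07 in DND-41 (adjusted p = 4.12e-07). BNIP2 fell by 0.25 in each line (edgeR adjusted p = 0.0164 in MOLT-4, 0.0110 in DND-41), and BCL2L12 rose by 0.27 in MOLT-4 (adjusted p = 0.00217) and by 0.37 in DND-41 (adjusted p = 6.79e-04). BCL2L2, BAD, BOK, BCL2L13, BCL2L15, BNIP1 and BNIP3 were tested and not called, and BCL2A1, BCL2L10, HRK and BCL2L14 had too few counts to be tested.

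Downstream of the pores, 14 genes of the apoptosome and the caspases were tested. Of these, 4 were higher and 4 lower in MOLT-4, and 5 higher and 2 lower in DND-41. The share called over all genes tested was 45.1% in MOLT-4 and 43.2% in DND-41. The list's median was 0.11 in MOLT-4 and 0.02 in DND-41. HTRA2, a mitochondrial protease that antagonises IAP proteins, fell by 0.23 ± 0.08 in MOLT-4 (edgeR adjusted p = 0.0200) and by 0.34 ± 0.08 in DND-41 (adjusted p = 0.00361). CASP6, an effector caspase, fell in MOLT-4 by 0.77 ± 0.08 (edgeR adjusted p = 1.15e-07), with a difference between lines of -0.51 ± 0.14 (adjusted p = 0.0180). The nuclease gene DFFB rose by 0.52 ± 0.09 in MOLT-4 (edgeR adjusted p = 1.20e-04) and by 0.46 ± 0.12 in DND-41 (adjusted p = 0.00719). CYCS, which encodes cytochrome c, and DFFA, the DFFB inhibitor, rose by 0.19 and 0.18 in MOLT-4, and DFFA and the caspase inhibitor XIAP by 0.21 and 0.30 in DND-41, all with an edgeR adjusted p below 0.05.

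Among 11 genes for binding partners and protein turnover of members, 4 passed the test in MOLT-4, each of them lower. In DND-41 4 passed, 3 higher and 1 lower. All genes tested were called at 20.7% higher and 24.4% lower in MOLT-4, and at 20% higher and 23.2% lower in DND-41. The list's median was -0.03 in MOLT-4 and 0.10 in DND-41. DYNLL2, the anchor of BMF, fell by 0.22 ± 0.05 in MOLT-4 (edgeR adjusted p = 0.00165) and by 0.38 ± 0.06 in DND-41 (adjusted p = 1.31e-04). DYNLL1, the related light chain that binds BIM, fell by 0.24 ± 0.05 in MOLT-4 (edgeR adjusted p = 0.00105). USP9X, a deubiquitinase that stabilises MCL1 protein, had 51.3 and 50.7 CPM with ACBI-1, against 67.0 and 67.1 CPM with DMSO, in MOLT-4, and 60.4 and 66.0 CPM with ACBI-1, against 61.6 and 55.9 CPM with DMSO, in DND-41. USP9X fell in MOLT-4 by 0.40 ± 0.06 (edgeR adjusted p = 3.66e-05), and its difference between lines was -0.50 ± 0.09 (adjusted p = 9.77e-04). FBXW7, a ubiquitin ligase subunit that marks MCL1 for degradation and is often mutated in T-ALL, fell in MOLT-4 by 0.28 ± 0.07 (edgeR adjusted p = 0.00303), with a difference between lines of -0.39 ± 0.10 (adjusted p = 0.0127). In DND-41, the ubiquitin ligase genes TRIM17 and BTRC rose by 0.93 ± 0.24 (edgeR adjusted p = 0.00569) and 0.52 ± 0.08 (adjusted p = 7.29e-05), and CASP8, whose product cleaves BID, by 0.29 ± 0.07 (adjusted p = 0.00392). VDAC1, VDAC2, VDAC3 and HUWE1 were called in neither line.

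Transcription factors known to act at member genes moved both ways. Of 14 tested in MOLT-4, 4 were higher and 6 lower, and of 15 tested in DND-41, 2 were higher and 6 lower. The medians were -0.10 in MOLT-4 and -0.04 in DND-41. For all genes tested, the share called was 45.1% in MOLT-4 and 43.2% in DND-41. FOXO3, a forkhead activator of BCL2L11 and BBC3, was at 46.3 and 46.2 CPM with ACBI-1, against 35.6 and 37.9 CPM with DMSO, in MOLT-4. It was at 44.0 and 45.7 CPM with ACBI-1, against 36.7 and 36.5 CPM with DMSO, in DND-41. FOXO3 rose by 0.33 ± 0.07 in MOLT-4 (edgeR adjusted p = 8.96e-04) and by 0.31 ± 0.07 in DND-41 (adjusted p = 0.00201). FOXO4 fell by 0.36 ± 0.10 in MOLT-4 (edgeR adjusted p = 0.00741) and rose by 0.48 ± 0.08 in DND-41 (adjusted p = 2.84e-04), a difference of -0.82 ± 0.14 (adjusted p = 4.32e-04). NR3C1, the glucocorticoid receptor, rose in MOLT-4 to 47.4 and 46.5 CPM with ACBI-1, against 31.0 and 31.6 CPM with DMSO, by 0.58 ± 0.07 (edgeR adjusted p = 1.50e-06). In DND-41 the NR3C1 log2 fold change was -0.01 ± 0.06 (edgeR adjusted p = 0.950), and the lines differed by 0.61 ± 0.09 (adjusted p = 6.62e-05). JUN, a subunit of AP-1, fell by 1.07 ± 0.16 in MOLT-4 (edgeR adjusted p = 1.20e-05) and by 0.97 ± 0.09 in DND-41 (adjusted p = 4.00e-07). TP73, a p53 relative, fell by 1.67 ± 0.30 in MOLT-4 (edgeR adjusted p = 1.15e-04) and by 0.85 ± 0.08 in DND-41 (adjusted p = 5.48e-07). The cytokine-signalling factor STAT3 fell by 0.42 ± 0.05 in MOLT-4 (edgeR adjusted p = 2.95e-06) and by 0.76 ± 0.07 in DND-41 (adjusted p = 4.36e-07). STAT5B rose by 0.59 ± 0.06 in MOLT-4 (edgeR adjusted p = 5.12e-08) and fell by 0.19 ± 0.07 in DND-41 (adjusted p = 0.0305), and the difference of STAT5B between lines was 0.80 ± 0.09 (adjusted p = 3.25e-06). The stress factor DDIT3 fell by 0.96 ± 0.13 in MOLT-4 (edgeR adjusted p = 6.43e-06) and by 0.48 ± 0.10 in DND-41 (adjusted p = 0.00182), and the difference between lines was not called (adjusted p = 0.0809). Whether any of these factors acts on a member here was not tested.

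BBC3 and BAX are textbook p53 targets, so 15 others were read beside them. In MOLT-4, 2 were higher and 7 lower with a median of -0.36, and in DND-41, 4 were higher and 4 lower with a median of 0.05. Of all genes tested, 20.7% were higher and 24.4% lower in MOLT-4, and 20% higher and 23.2% lower in DND-41. PHLDA3, an inhibitor of AKT, was at 2.17 and 1.76 CPM with ACBI-1, against 7.45 and 8.00 CPM with DMSO, in MOLT-4, and at 1.0 and 1.05 CPM with ACBI-1, against 4.46 and 5.46 CPM with DMSO, in DND-41. PHLDA3 fell by 1.97 ± 0.18 in MOLT-4 (edgeR adjusted p = 3.07e-08) and by 2.25 ± 0.24 in DND-41 (adjusted p = 2.71e-06). FAS, a death receptor that leads to caspase-8, fell by 1.40 ± 0.12 in MOLT-4 (edgeR adjusted p = 1.82e-08) and by 0.69 ± 0.14 in DND-41 (adjusted p = 0.00109), and the death receptor TNFRSF10B fell by 0.91 ± 0.18 in MOLT-4 (adjusted p = 3.33e-04). SESN1, a stress-induced regulator of mTORC1, rose by 0.43 ± 0.11 in MOLT-4 (edgeR adjusted p = 0.00243) and by 0.54 ± 0.12 in DND-41 (adjusted p = 0.00275), whereas its relative SESN2 fell by 0.34 ± 0.10 in MOLT-4 (adjusted p = 0.00912) and by 1.13 ± 0.07 in DND-41 (adjusted p = 8.39e-09). AEN rose by 0.21 in MOLT-4 (edgeR adjusted p = 0.0114), and ZMAT3 and GADD45A rose by 0.58 and 0.30 in DND-41 (adjusted p = 5.79e-04 and 0.0223). Higher and lower calls thus stood side by side in each line, with more lower than higher calls in MOLT-4.

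**Figure D4:**
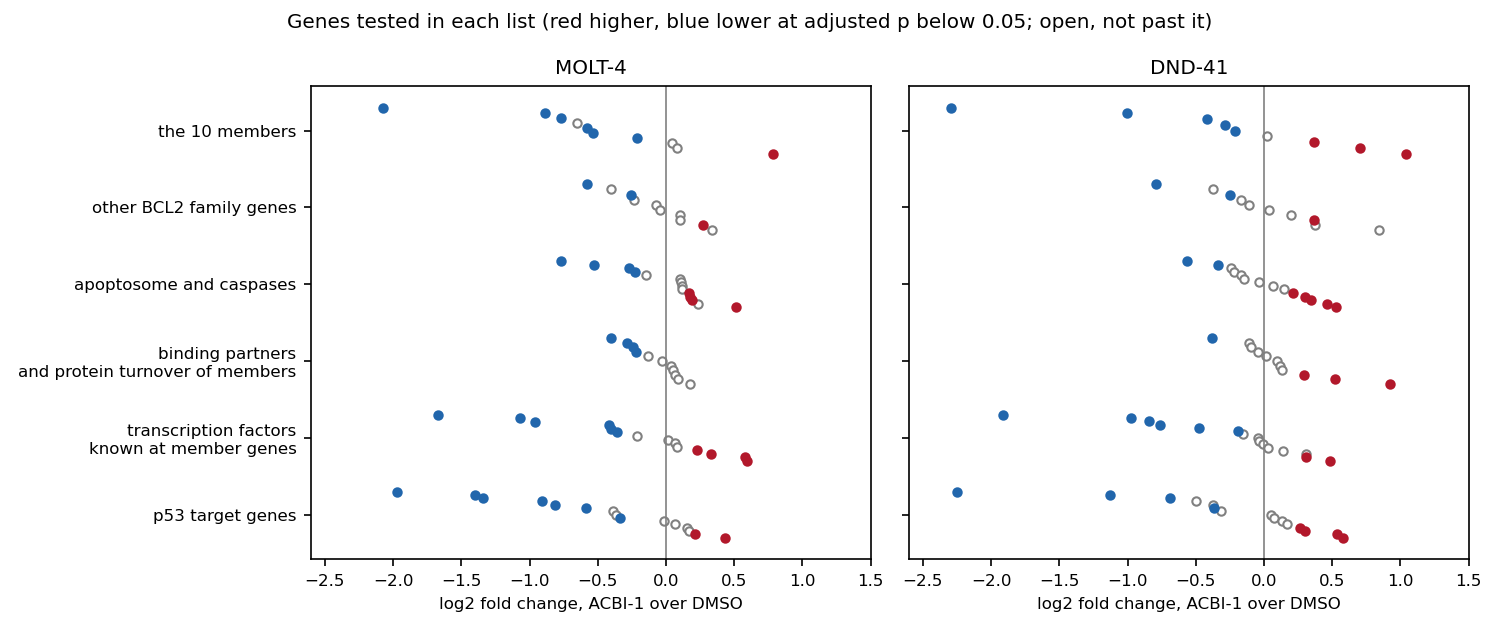
Log2 fold change of ACBI-1 over DMSO (horizontal axis) for every tested gene of the 10 members and of 5 related lists, MOLT-4 on the left and DND-41 on the right; red points are called higher, blue points lower, and open points did not pass an edgeR adjusted p of 0.05. Each list holds genes on both sides of 0, and the p53 target list has its median at -0.36 in MOLT-4 and 0.05 in DND-41.

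Genes with the most similar pattern were found for each called member by the distance between log2(CPM + 1) values over the 8 libraries, each centred on its line's DMSO mean, among 8823 genes at 5 CPM or more on average in each line. For BCL2L11 they were CNPPD1, CCDC167 and LCT, at distances of 0.105 to 0.128. CNPPD1 had log2 fold changes of 0.80 in MOLT-4 and 0.66 in DND-41. For BCL2 the nearest were LRP5, FAM50A and SLC6A6 (0.130 to 0.153), for MCL1 DNAJB11, CASC15 and VILL (0.103 to 0.141), and for BCL2L1 EFR3A, FIG4 and CLPTM1 (0.0716 to 0.107). For BID they were TLE4, VPS37B and RCSD1 (0.167 to 0.182), for BAX ARPC5, SH3GLB1 and DOCK8 (0.0836 to 0.0983), and for BAK1 GSDMD, CDH2 and MIA3 (0.132 to 0.146). BBC3, BMF and BIK had no gene this close, their nearest being FADS1 at 0.574, ESF1 at 0.346 and MAD2L1BP at 0.388.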

How the data were processed

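RNA-seq libraries of total RNA, paired and strand-specific per the labels' protocols, were read at 100 bases on DNBSEQ. The submitters' processing notes name STAR 2.5.2a, featureCounts, DESeq2 1.12.4 and hg19 without roles or order; the annotation and strand setting were not given in the sources used here. The authors deposited whole-number counts per gene, which were tested. The deposited comparison tables give log2 fold changes, p-values and adjusted p-values per the file headers. Their score columns, per the file headers, are a test statistic and a mean over normalized counts. Counts of 8 libraries in 4 groups of 2, grouped by the labels, were joined by gene identifier.

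Each line was fitted with edgeR 4.0.16 in R 4.3.3: filterByExpr at a minimum count of 10, TMM scaling, a quasi-likelihood F test on treatment alone, Benjamini-Hochberg adjustment over all genes tested, and calls at 0.05. SEs were obtained by dividing the size of the log2 fold change by the square root of F. The difference between lines is the interaction over all 8 libraries, and MOLT-4 and DND-41 DMSO libraries were compared in the same fit, whose TMM factors also scale the CPM. Exon lengths and overlaps came from GENCODE 29 by identifier, and promoters from RefSeq GRCh38.p14, not the files' build; coordinates are of GRCh38.p14. Tables used Python 3.11.15, pandas 2.3.3 and matplotlib 3.10.9.

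The members and lists were chosen with earlier results of these data known, so a list's count is no independent support. The genes named are all 10 members, every gene of a list where it has at most 5 calls in a line, otherwise up to 3 rises and 3 falls by adjusted p, and the 3 nearest genes per called member; genes outside this are named for their role beside a member. Some results that this takes are not reported here. Code was tested on simulated counts. Alternatives were median-ratio size factors, library size alone, no filter, at least 1 CPM in every library, DESeq2 1.42.0, all 8 libraries in 1 fit, a replicate block and leaving out each library. Fits without mitochondrially encoded genes and without both MOLT-4 replicate 2 libraries were chosen after seeing the data.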

Additional observations from a re-analysis of the deposited data

Results flagged for a closer look

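The response to ACBI-1 differed between the lines for 4 members, by the test of the difference itself over all 8 libraries (log2 fold change in MOLT-4 minus that in DND-41). MCL1 differed by -0.54, with a fold change of -0.53 in MOLT-4 and 0.02 in DND-41. BMF differed by -0.97, its rise being in DND-41. BID differed by -0.45 and BAK1 by -0.34, both falling further in MOLT-4. Under the alternatives, the difference kept its call in 16 of 16 for MCL1, 15 of 16 for BMF and for BID, and 10 of 16 for BAK1. The T-lineage marker sum was 6288 to 6332 CPM with ACBI-1 against 8163 to 8354 CPM with DMSO in MOLT-4. In DND-41 it was 5950 to 6267 CPM with ACBI-1 against 5980 to 6043 CPM with DMSO. Its 10 markers moved both ways. With ACBI-1, 1 was called higher and 7 lower in MOLT-4, and 3 higher and 7 lower in DND-41. Over all genes tested, 20.7% were higher and 24.4% lower in MOLT-4, and 20% higher and 23.2% lower in DND-41. The part of these markers in the differences between lines was not tested. With 2 libraries a group, no single library could be marked as far from its group.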

How the results depend on the processing

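Of 551 values of the 39 member results under the alternatives, 511 kept their side of the threshold, and no called result reversed. The 511 include values that changed sign without passing the threshold in either fit, such as MCL1 in DND-41 (-0.02 to 0.05). The member calls that changed stand with their results, apart from the DMSO comparison. There BAK1 was not called in edgeR with library size alone (adjusted p = 0.177), nor BAX with DESeq2 (adjusted p = 0.0542). With DESeq2, 1962 genes were higher in MOLT-4 and 1871 in DND-41, against 2948 in MOLT-4 and 2807 in DND-41 by edgeR. With library size alone, 1781 genes were higher in MOLT-4, the difference called 499 genes higher, and 1 member was higher in MOLT-4 with DMSO. Without a filter the difference was called positive for 1 member (BBC3). With at least 1 CPM in every library, where BIK and BBC3 were not tested, 1 member was higher in MOLT-4 with DMSO. Without both MOLT-4 replicate 2 libraries, 1357 genes were higher and 2232 lower in MOLT-4, and the difference called 440 genes higher, 504 lower and 2 members lower; here a lone library per group is assumed to vary like the others.

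Leaving out 1 library at a time gave, in MOLT-4, 1 to 2 members higher, 5 to 6 lower, 2436 to 2912 genes higher and 2979 to 3388 lower. In DND-41 it gave 3 members higher, 3 to 5 lower, 1745 to 3044 genes higher and 2556 to 3499 lower. For the difference it gave 0 to 1 members higher, 3 to 5 lower, 699 to 1207 genes higher and 621 to 989 lower. Between the DMSO groups it gave 1 to 2 members higher, 5 to 7 lower, 4656 to 5462 genes higher and 4122 to 4983 lower.

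The replicate numbers are shared between groups, but nothing in the labels says that they pair libraries, and replicate differences correlated at r = 0.216 in MOLT-4 and 0.106 in DND-41. With the replicate block, 3217 genes were higher and 3703 lower in MOLT-4, 3297 higher and 3579 lower in DND-41, 1398 higher and 1181 lower for the difference, and 5161 higher and 4776 lower between the DMSO groups. The block changed 1 member call: the difference of BCL2L1 passed, at -0.26 with an adjusted p of 0.0158.

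Depth limits BIK in DND-41 and BBC3 in MOLT-4, with 1 to 7 counts per library for BIK and 4 to 13 for BBC3.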

Other observations

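The authors' deposited tables run in opposite directions in the 2 lines. Of 4030 genes past 0.05 in the authors' deposited table of MOLT-4 and tested here, 0% had the sign of ACBI-1 over DMSO in the counts, against 100% of 4061 genes in that of DND-41. In the authors' deposited table of MOLT-4, BCL2L11 stands at -0.79 and BCL2 at 0.76, which in the counts is higher BCL2L11 and lower BCL2 with ACBI-1. The authors' deposited table of DND-41 gives BCL2L11 at 0.70 and BCL2 at -1.01. By the authors' deposited tables, 6 members pass 0.05 in MOLT-4 and 7 in DND-41. Among all genes tested here, 4030 of 14239 in MOLT-4 and 4061 of 14008 in DND-41 pass it there. BAX in MOLT-4 (authors' DESeq2 adjusted p = 0.129) and BAK1 in DND-41 (adjusted p = 0.121) do not.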
